A study of Mus musculus with 30 samples.

Results

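In a mouse embryonic stem cell clone, doxycycline was withdrawn for 3 days and then given back for 12 h, and the pulsed cells are set here against the cells from which the pulse started. The comparison uses 6 of the 30 arrays of the series, 3 labelled day 3 +12h Dox and 3 labelled day 3 -Dox, chosen by group label alone. It asks which transcripts stood at another level after the pulse than before it, as distinct from transcripts whose change was only held back while cells without the pulse went on changing. The clone, NgR, is a Nanog rescue clone of the rtTA-expressing line that the labels spell Aniv15 or AINV15, in which doxycycline (Dox, 1 ug/ml) switches Nanog on, so every group carries the same genotype.

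The 4 groups used most were these. Day 3 +12h Dox cells had 3 days without Dox and then 12 h with it, and are called pulsed cells. Day 3 -12h Dox cells had 3 days without Dox and 12 further hours without it, and serve as the timed control. Day 3 -Dox cells had 3 days without Dox and are the start point. Day 0 +Dox cells were never withdrawn. Each group held 3 arrays, and the pulsed and start arrays of days 1 and 5 are used for the comparison between days.

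Nanog is a homeodomain transcription factor of the pluripotency network. With Esrrb, Klf4, Prdm14 and other factors it holds mouse embryonic stem cells in the naive state, which resembles the epiblast of the blastocyst before implantation. When the network weakens, naive genes decline and genes of the formative epiblast, such as Otx2 and Fgf5, come up before any lineage is chosen. Some of the factors regulate each other, so that returning one of them can in principle move others.

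NgR is 1 clone, and the labels say that it was kept on primary mouse embryonic fibroblasts without saying whether these were removed before RNA extraction. No arrays came from cells kept on Dox over the same days, nor from cells whose Nanog did not depend on Dox, so withdrawal and time in culture, or Dox and Nanog, cannot be told apart. The array signal does not tell Nanog RNA of the transgene from that of the endogenous gene. These are bulk samples, in which fewer cells of a type and less RNA per cell cannot be told apart. Across the 30 arrays the median signal lay between 7.33 and 7.46 (log2), and the interquartile range of the 6 compared arrays between 2.48 and 2.64. Timed control replicate 2 had a range of 2.84 and is one of the 4 widest arrays. The 8 embryonic stem cell markers ranged from 9.72 to 12.19 over the 6 compared arrays, which matches the labelled cell type.

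Nanog (cluster 10541524) checked the labels. Its signal was 10.89, 11.02 and 10.99 in the 3 pulsed arrays, 10.12, 10.18 and 10.21 in the timed control, 10.48, 10.48 and 10.57 at the start point, and 11.04, 11.05 and 11.01 at day 0. Every pulsed array was above every start array, and the pulsed arrays overlapped those of day 0. Nanog rose by 0.46 ± 0.080 over the start point (log2 difference ± SE, 3 arrays against 3, limma adjusted p = 0.00101). Over the same 12 h without Dox it changed by -0.34 ± 0.080 (adjusted p = 0.0223), so pulsed cells stood 0.80 above their timed control (adjusted p = 4.61e-06).

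Of 23385 array clusters with a gene symbol, 796 (3.4%) differed between pulsed cells and the start point at a limma adjusted p under 0.05, and these are called changed below. There were 316 higher (1.35%) and 480 lower (2.05%), and 7 of all called clusters changed by at least 2-fold. Where each array was first centred on its own median, the split was 300 higher and 298 lower. The count rests partly on single arrays: it was 353 and 290 without pulsed replicates 2 and 3, and 468 and 269 without start replicates 1 and 2. Of 82 called genes taken by the naming rule or by their call against the timed control, 57 kept their call without each of the 6 arrays in turn and 25 lost it without at least 1, as given beside them. Over all tested clusters the lower and upper deciles of the change were -0.18 and 0.16. Whether replicates came from separate cultures is not in the labels, so a p-value here measures spread between arrays that may be technical.

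The start point and the pulsed cells are 12 h apart, and the timed control shows what those hours did without Dox. There, 396 clusters (1.69%) differed from the start point, 302 of them higher (1.29%) and 94 lower (0.402%). That count was 212 and 151 without timed control replicates 1 and 2, and 207 and 188 without start replicates 2 and 3. Pulsed cells and timed control differed directly at 9 clusters (0.0385%), 1 higher (0.00428%) and 8 lower (0.0342%). Centring each array left 1 higher and 1 lower there, quantile normalization gave 14 higher and 12 lower, and array weights gave 710 and 1155. At an unadjusted p under 0.05 the direct contrast held 3408 clusters and the contrast with the start point 3680. These contrasts share arrays: the change of pulsed cells and that of the timed control are both measured from the same 3 start arrays, and the direct contrast uses the same 3 pulsed arrays. Values from them are therefore given side by side and their likeness is not a result.

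The direction of withdrawal was taken from arrays that the comparison of pulsed cells with the start point does not use, namely the timed control against day 0, where 8507 clusters (36.4%) were called. A change is called movement back where it was opposite to a called difference of the timed control from day 0, and onward movement where it had the same sign. Movement back was found at 413 clusters (1.77% of those tested), 158 of them higher and 255 lower in pulsed cells, a split that centring each array turned to 158 and 153. Onward movement was found at 153 clusters (0.654%), 89 higher and 64 lower. Without pulsed replicates 2 and 3 in turn movement back was found at 176 and 143 clusters, and without start replicates 1 and 2 at 217 and 122. Onward movement was found at 77 and 67 without those pulsed replicates and at 70 without start replicate 2. The other 230 called clusters were not called in the timed control against day 0. Back movement thus made up 51.9% of the called clusters and onward movement 19.2%.

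**Figure D1:**
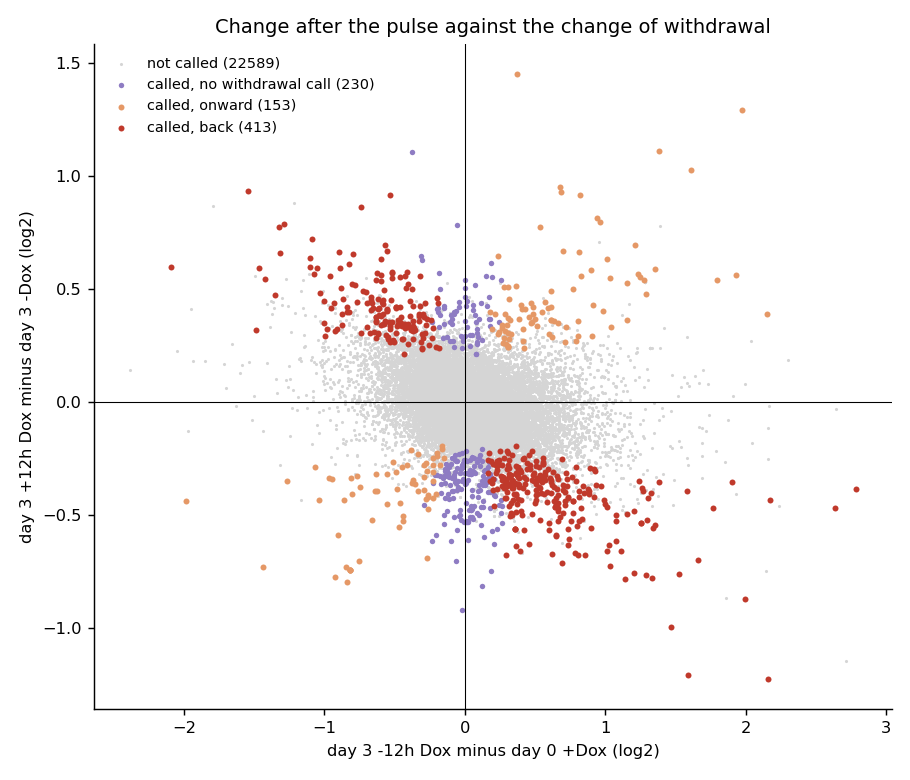
Each point is 1 of 23385 clusters. The horizontal axis is the log2 difference of the timed control from day 0 (day 3 -12h Dox minus day 0 +Dox) and the vertical axis the log2 change of pulsed cells from the start point (day 3 +12h Dox minus day 3 -Dox), with 413 called clusters that moved back in red, 153 that moved onward in orange, and 230 not called in the timed control against day 0 in purple.

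The timed control shows how much of each class was also present without Dox. Clusters that moved back and were higher in pulsed cells had a median change of 0.39 from the start point, beside 0.20 in the timed control. Those that moved back and were lower had -0.38 in pulsed cells and -0.14 in the timed control. Among onward rises the medians were 0.39 in pulsed cells and 0.44 in the timed control, and among onward falls they were -0.38 and -0.29. These medians describe clusters picked by their call and carry no test. The classes rest on the timed control, and the start arrays, which the change of pulsed cells shares, placed some clusters elsewhere against day 0. Onward rises stood a median 0.57 above day 0 in the timed control but 0.13 above it at the start point, and onward falls -0.46 and -0.20. Of the clusters not called in the timed control, those higher in pulsed cells stood at -0.30 from day 0 at the start point, and those lower in pulsed cells at 0.23.

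Naive pluripotency genes moved in part. Of 26 measured members of the naive list, 5 were called higher and 2 lower, with a median change of 0.09 in pulsed cells and -0.06 in the timed control. For this and every later list, the shares over all clusters were 1.35% called higher and 2.05% called lower. Prdm14, a PR-domain protein that represses FGF signalling and DNA methylation genes in stem cells, had 8.23, 8.14 and 8.32 in pulsed cells, 7.95, 7.91 and 7.76 in the timed control, 7.66, 7.51 and 7.50 at the start point, and 8.37, 8.49 and 8.44 at day 0. The 3 pulsed arrays were above all arrays of the timed control and of the start point, and below those of day 0. Its rise was 0.67 ± 0.074 (adjusted p = 4.91e-06), beside 0.31 ± 0.074 in the timed control (adjusted p = 0.0242).

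Rab27a, a small GTPase of vesicle transport that is high in naive stem cells, had 9.60, 9.54 and 9.61 in pulsed cells, 9.14, 9.37 and 9.20 in the timed control, 8.83, 8.91 and 8.85 at the start point, and 10.32, 10.35 and 10.29 at day 0. The 4 groups did not overlap. Rab27a rose by 0.72 ± 0.103 (adjusted p = 0.000118), beside 0.37 ± 0.103 in the timed control (adjusted p = 0.0652). Calcoco2, an autophagy receptor used as a naive marker, rose by 0.93 ± 0.171 (adjusted p = 0.0017), to 8.70, 8.80 and 8.97 in pulsed cells against 7.86, 7.82 and 7.99 at the start point. Its timed control had 8.49, 8.55 and 8.34, a change of 0.57 (adjusted p = 0.0956). Pulsed cells stood 0.37 above that timed control, which did not pass (adjusted p = 0.321). Day 0 had 10.06, 10.05 and 9.90, so Calcoco2 stayed well short of it. Tet2, an enzyme that oxidizes methylated cytosine, was 0.51 ± 0.096 higher (adjusted p = 0.00254), and its timed control stood 0.34 above the start point (adjusted p = 0.0755). The 2 called lower were Tcl1, a coactivator of AKT (-0.34, adjusted p = 0.0452), and the adhesion molecule Jam2 (-0.34, adjusted p = 0.00555), beside -0.38 and -0.53 in the timed control. Calls of Tcl1 and Jam2 were not checked by leaving out arrays. The list includes Nanog itself, which the clone's design sets.

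Several defining naive genes did not pass the test. Esrrb, an orphan nuclear receptor and a direct target of Nanog, had 9.97, 10.01 and 9.99 in pulsed cells and 9.80, 9.83 and 9.72 at the start point, a difference of 0.21 ± 0.106 (adjusted p = 0.346). The 3 pulsed arrays were the higher ones, and those of day 0 were higher still, at 10.51, 10.45 and 10.37. Klf4, a zinc finger factor downstream of LIF, differed by 0.17 (adjusted p = 0.391), Klf2 by 0.13 (0.459) and Tbx3 by -0.16 (0.194). Zfp42, the marker also called Rex1, stood at 10.86, 10.79 and 10.93 in pulsed cells, 10.47, 10.51 and 10.53 in the timed control, and 10.83, 10.78 and 10.80 at the start point. Its pulsed and start arrays overlapped, and the difference was 0.06 (adjusted p = 0.89).

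Mras and Eras, Ras-family GTPases, were still far below day 0 in pulsed cells. Mras had 7.36, 7.42 and 7.35 in pulsed cells against 7.23, 7.23 and 7.24 at the start point, and 9.59, 9.68 and 9.62 at day 0. Its difference from the start point was 0.14 ± 0.074 (adjusted p = 0.354). Eras differed by 0.41 ± 0.118 (adjusted p = 0.0514), with pulsed arrays at 7.83, 7.68 and 7.91, start arrays at 7.35, 7.43 and 7.40, and day 0 arrays at 9.23, 9.46 and 9.79.

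Of 19 measured general pluripotency genes, 2 were called higher and 4 lower, beside 1.35% and 2.05% of all clusters. Pou5f1 (Oct4), the central factor of pluripotency, rose by 0.34 ± 0.088 (adjusted p = 0.0305), with 11.86, 11.97 and 12.02 in pulsed cells, 11.73, 11.89 and 11.81 in the timed control, 11.66, 11.57 and 11.60 at the start point, and 12.38, 12.34 and 12.33 at day 0. Dppa2, a DNA-binding developmental pluripotency factor, rose by 0.34 ± 0.082 (adjusted p = 0.0181). Both calls depend on single arrays: the adjusted p reached 0.177 for Pou5f1, where leaving out any of 5 of the 6 arrays ended the call, and 0.106 for Dppa2, where any of 4 did. A second Dppa2 cluster rose by 0.59 (adjusted p = 0.000761). Mycn, a Myc-family factor, fell by 0.53 on the log2 scale (adjusted p = 0.000456), which was onward movement. Its change in the timed control was -0.39 (adjusted p = 0.0136). The Polycomb subunit Phc1 changed by -0.39 (adjusted p = 0.00541); it was not called in the timed control against day 0, and its start point stood 0.35 above day 0 (adjusted p = 0.0014). Sox2 was at 12.03, 12.02 and 11.96 in pulsed cells and 12.12, 12.11 and 12.19 at the start point, and its difference of -0.13 did not pass (adjusted p = 0.474).

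Other transcripts were called as moving back while their timed control was not called against the start point. That pairing does not test pulsed cells against the timed control, so the direct contrast is given as well. Khdc3, also known as Filia, a maternal-effect protein that guards chromosome stability in early embryos and stem cells, had 8.24, 8.21 and 8.40 in pulsed cells, 7.61, 7.83 and 7.81 in the timed control, 7.58, 7.67 and 7.80 at the start point, and 9.87, 9.78 and 9.89 at day 0. It rose by 0.60 ± 0.122 (adjusted p = 0.00486), beside 0.07 in the timed control (adjusted p = 0.905). The direct contrast of pulsed cells with their timed control was 0.53 (adjusted p = 0.0988). Lsm5, a component of the RNA-binding Lsm ring, rose by 0.77 ± 0.188 (adjusted p = 0.0192), beside 0.21 without Dox (adjusted p = 0.752), and its adjusted p reached 0.139 when 1 array was left out. Its direct contrast with the timed control was 0.57 (adjusted p = 0.194).

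Falls of this kind included genes that withdrawal had raised strongly. Car4, a membrane-bound carbonic anhydrase, had 10.12, 10.32 and 10.32 in pulsed cells, 10.65, 10.75 and 10.62 in the timed control, 10.76, 10.74 and 10.67 at the start point, and 8.02, 8.22 and 7.88 at day 0. All pulsed arrays were below the timed control and the start point and far above day 0. Car4 fell by 0.47 on the log2 scale (SE 0.083, adjusted p = 0.00126). Its direct contrast with the timed control was -0.42 and did not pass (adjusted p = 0.0551). Fgf5, the FGF ligand that marks the postimplantation epiblast, had 7.70, 7.99 and 7.91 in pulsed cells, 8.05, 8.44 and 8.11 in the timed control and 8.46, 8.25 and 8.06 at the start point. Its change was -0.39 ± 0.105 (adjusted p = 0.0352), beside -0.06 without Dox (adjusted p = 0.904), and the direct contrast was -0.33 (adjusted p = 0.18). The Fgf5 call was lost when arrays were centred on their medians and when any of 4 of the arrays was left out (adjusted p up to 0.213). Otx2, the homeodomain factor of the formative epiblast, was at 9.97, 9.94 and 9.99 in pulsed cells against 10.12, 10.14 and 10.19 at the start point (difference -0.18, adjusted p = 0.468).

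The direct contrast of pulsed cells with the timed control called 8 clusters lower, and 7 of them were also called lower than the start point. Over all clusters 2.05% were called lower than the start point. Both contrasts use the same 3 pulsed arrays, which favours this overlap. No fall was called in the direct contrast without pulsed replicate 1 or 3 or timed control replicate 2. The same held in a fit of the compared groups alone. The 7 are named because the direct contrast called them, after their values were seen. Their adjusted p in that contrast ran from 0.00776 for Ap3b2 to 0.0484 for Gja1. Slc40a1 (ferroportin), the cellular exporter of iron, had 10.40, 10.52 and 10.57 in pulsed cells, 10.92, 10.98 and 10.97 in the timed control, 10.89, 10.93 and 10.81 at the start point, and 8.22, 8.25 and 8.04 at day 0. It fell by 0.38 on the log2 scale from the start point (adjusted p = 0.00836), and the timed control differed by 0.08 (adjusted p = 0.8). Flvcr1, a heme exporter and choline transporter, changed by -0.36 ± 0.086 (adjusted p = 0.0173), with pulsed arrays at 7.71, 7.57 and 7.76 and start arrays at 8.13, 8.05 and 7.93. Leaving out 1 array raised the adjusted p to 0.0638 for Slc40a1 (start replicate 2) and up to 0.116 for Flvcr1. A second Flvcr1 cluster of higher signal (10361075) differed by -0.10 and was not called (adjusted p = 0.503), so the clusters of this gene disagree. The values given first are those of the cluster that was called (10361065).

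Fgfr2, a receptor for FGF ligands, had 8.53, 8.52 and 8.56 in pulsed cells, 8.84, 8.99 and 8.89 in the timed control, 9.04, 9.09 and 8.96 at the start point, and 8.24, 8.31 and 8.07 at day 0. Pulsed arrays lay between those of day 0 and those of the other groups with no overlap, and the change was -0.49 ± 0.067 (adjusted p = 6.46e-05). Gja1 (connexin 43), the main gap junction protein of stem cells, changed by -0.47 ± 0.066 (adjusted p = 8.65e-05). Its pulsed arrays were at 11.29, 11.28 and 11.24, its timed control arrays at 11.55, 11.70 and 11.59 and its start arrays at 11.76, 11.76 and 11.70.

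Lpar4, a receptor for lysophosphatidic acid, had 8.26, 8.63 and 8.45 in pulsed cells, 9.02, 9.24 and 9.05 in the timed control, 9.28, 9.0 and 8.71 at the start point, and 8.36, 8.27 and 8.29 at day 0. The pulsed arrays overlapped those of day 0, and the change from the start point was -0.55 ± 0.119 (adjusted p = 0.00823). Without start replicate 1 it was -0.41 (adjusted p = 0.0807). Slc38a2, a transporter of neutral amino acids, changed by -0.46 ± 0.060 (adjusted p = 3.45e-05), with 11.20, 11.27 and 11.15 in pulsed cells, 11.62, 11.68 and 11.70 at the start point, and 11.41, 11.38 and 11.28 at day 0. Its pulsed arrays were below those of day 0. Ap3b2, a subunit of the neuronal AP-3 vesicle coat, changed by -0.53 ± 0.072 (adjusted p = 7.34e-05). The timed control of these genes differed from the start point by -0.13 for Gja1 up to 0.13 for Flvcr1, and none of the 7 was called there.

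Wnt8a, a Wnt ligand of the early embryo, was the remaining fall against the timed control, and it was not called against the start point. It had 7.49, 7.60 and 7.54 in pulsed cells, 8.0, 8.28 and 8.06 in the timed control, 7.85, 7.64 and 7.52 at the start point, and 7.19, 6.95 and 6.90 at day 0. Pulsed and start arrays overlapped (difference -0.13, adjusted p = 0.659). The timed control rose by 0.44 ± 0.105 (adjusted p = 0.0233), and pulsed cells stood 0.57 below it, a contrast of -0.57 (adjusted p = 0.0281). The count of 9 in this direct contrast was 1 to 4 when each array of pulsed cells or timed control was left out in turn.

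**Figure D2:**
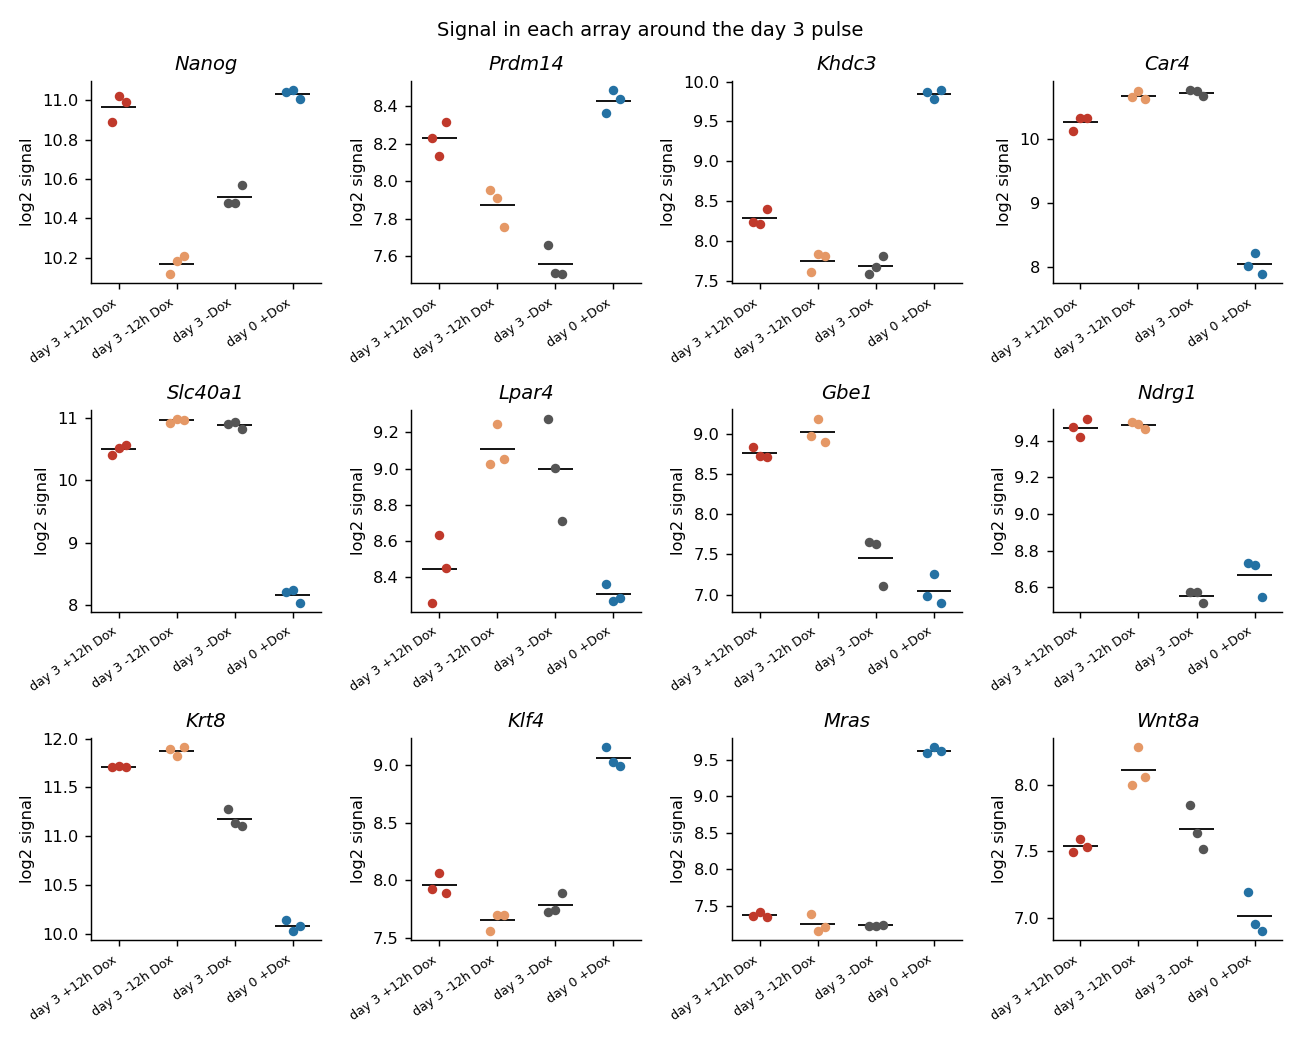
Log2 signal in each array (points) and the group mean (line) for 12 genes, in pulsed cells (red), timed control (orange), start point (grey) and day 0 (blue); each panel has its own axis, which does not start at 0. Nanog in pulsed cells overlapped day 0, Khdc3, Car4 and Slc40a1 moved part of the way, and the pulsed arrays of Mras lay near the start point. Gbe1 and Ndrg1 stood above the shared start arrays in pulsed cells and in the timed control.

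The largest fall among the named genes was back toward day 0, in the germline gene Meiob, and the timed control fell as well. Meiob, a single-stranded DNA-binding protein of meiosis, had 6.23, 6.18 and 6.18 in pulsed cells, 6.34, 6.47 and 6.04 in the timed control, 7.49, 7.85 and 6.91 at the start point, and 3.81, 4.68 and 3.89 at day 0. It fell 2.33-fold in pulsed cells, a change of -1.22 ± 0.237 (adjusted p = 0.00303), and the timed control changed by -1.14 ± 0.237 (adjusted p = 0.00878). The 3 start arrays spread widely. Tdrd12, a Tudor-domain helicase of the piRNA pathway, changed by -0.68 ± 0.112 (adjusted p = 0.000599), and Usp26, a testis ubiquitin protease on the X chromosome, by -0.68 ± 0.095 (adjusted p = 8.65e-05). In the timed control Tdrd12 changed by -0.48 (adjusted p = 0.0224) and Usp26 by -0.40 (adjusted p = 0.024). Their direct contrasts with the timed control did not pass (adjusted p = 0.416 and 0.206).

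Got1l1, a relative of aspartate aminotransferase, had 9.32, 9.01 and 9.11 in pulsed cells, 9.31, 9.40 and 9.33 in the timed control, 9.84, 9.89 and 10.01 at the start point, and 8.02, 8.29 and 7.87 at day 0. Its change was -0.77 ± 0.121 in pulsed cells and -0.57 ± 0.121 in the timed control. Lpar6, another lysophosphatidic acid receptor, changed by -0.76 ± 0.107 in pulsed cells and -0.41 in the timed control, and Dnah8, an axonemal dynein heavy chain, by -0.75 and -0.49. The zinc finger gene Zfp677 changed by -0.68 and -0.37. In each of these genes the pulsed value was the larger change, which their choice by that value favours. None of them was called between pulsed cells and the timed control.

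Rises back toward day 0 outside the naive list included an antioxidant enzyme and a lectin. Gpx1, the selenoenzyme that reduces hydrogen peroxide, had 10.94, 11.11 and 11.38 in pulsed cells, 10.90, 11.09 and 10.89 in the timed control, 10.30, 10.24 and 10.29 at the start point, and 11.62, 11.72 and 11.76 at day 0. Its change was 0.87 ± 0.099 in pulsed cells (adjusted p = 7.08e-06) and 0.68 ± 0.099 in the timed control (adjusted p = 0.000202). The zinc finger gene Zfp428 changed by 0.92 and 0.71, Lgals3 (galectin 3) by 0.66 and 0.46, and Cyb5a, the microsomal electron carrier cytochrome b5, by 0.69 and 0.32. Pulsed and timed control arrays of Gpx1 overlapped.

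After Ier3, genes of hypoxia and of glycogen were among the largest onward rises, and the timed control also stood above the shared start arrays. Cells short of oxygen stabilize the HIF factors, which bind a core sequence beside the genes of glycolysis, mitophagy and oxygen sensing and turn them on. Of 17 measured genes of the glycolysis and hypoxia list, 7 were called higher and none lower in pulsed cells (Pfkp, Ldha, Vegfa, Bnip3, Ndrg1, P4ha1 and Egln3), with a median change of 0.18. In the timed control 9 were called higher and the median was 0.33. Over all clusters 1.35% were called higher in pulsed cells and 1.29% in the timed control. The oxygen supply or density of the cultures is not in the labels, and its part in these values was not tested.

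Ier3, an early-response gene of survival signalling, had the largest rise among the named genes. It had 9.31, 9.19 and 9.67 in pulsed cells, 8.93, 9.16 and 8.99 in the timed control, 8.03, 7.89 and 7.90 at the start point, and 8.59, 8.78 and 8.59 at day 0. It was 2.74-fold higher, a change of 1.45 ± 0.135 (adjusted p = 2.94e-07), beside 1.09 ± 0.135 in the timed control (adjusted p = 2.13e-05). The start arrays were below every other array shown, day 0 included (start minus day 0 -0.72, adjusted p = 0.000135), so the onward class of Ier3 rests on the timed control.

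Gbe1, the glycogen branching enzyme, had 8.84, 8.72 and 8.71 in pulsed cells, 8.98, 9.19 and 8.90 in the timed control, 7.65, 7.62 and 7.10 at the start point, and 6.98, 7.26 and 6.90 at day 0. It rose 2.45-fold, by 1.29 ± 0.161 (adjusted p = 1.84e-05), beside 1.56 ± 0.161 without Dox (adjusted p = 1.76e-06). Gys1, the glycogen synthase outside the liver, rose by 0.95 ± 0.089 (adjusted p = 2.94e-07), beside 1.02 without Dox, and its start point too stood below day 0 (-0.35, adjusted p = 0.00298). Both glycogen enzymes thus stood above the shared start arrays with and without Dox. Because the start arrays are the same, the likeness of these changes is not a result. Whether low start arrays account for both was not tested. The direct contrast of pulsed cells with the timed control was -0.26 for Gbe1 (adjusted p = 0.461) and -0.07 for Gys1 (adjusted p = 0.744).

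Ndrg1, a stress-responsive protein induced by hypoxia, had 9.48, 9.42 and 9.52 in pulsed cells, 9.51, 9.49 and 9.47 in the timed control, 8.57, 8.57 and 8.52 at the start point, and 8.73, 8.72 and 8.55 at day 0. Its change was 0.92 ± 0.069 in pulsed cells (adjusted p = 8.68e-09) and 0.93 ± 0.069 in the timed control (adjusted p = 5.93e-09). Bnip3, a mitophagy receptor, had 11.87, 11.98 and 11.93 in pulsed cells, 11.75, 11.82 and 11.75 in the timed control, 11.17, 11.08 and 11.13 at the start point, and 10.77, 10.85 and 10.80 at day 0. Bnip3 rose by 0.80 ± 0.075 (adjusted p = 2.94e-07), beside 0.65 without Dox. Egln3, an oxygen-sensing prolyl hydroxylase, rose by 0.55 ± 0.113 (adjusted p = 0.00486), beside 0.84 without Dox, and Pfkp, a phosphofructokinase, by 0.42 ± 0.077 (adjusted p = 0.00158), beside 0.37.

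Other large rises, of genes outside the hypoxia list, were Bhlhe40, a clock-linked repressor (1.11 in pulsed cells, 0.98 in the timed control), Higd1a, a mitochondrial protein of the hypoxia-induced family (1.11 and 0.76 for cluster 10492860), Anxa2, a membrane-binding annexin (1.03 and 1.01), and A2m, a protease inhibitor (0.93 and 0.56). A second Higd1a cluster of lower signal (10597871) differed by 0.19 (adjusted p = 0.424) and by 0.57 in the timed control, so its clusters disagree. Anxa2 had 10.85, 10.60 and 10.80 in pulsed cells, 10.76, 10.76 and 10.69 in the timed control, and 9.75, 9.69 and 9.73 at the start point. Pulsed and timed control arrays of Anxa2 overlapped and lay well above the start point.

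**Figure D3:**
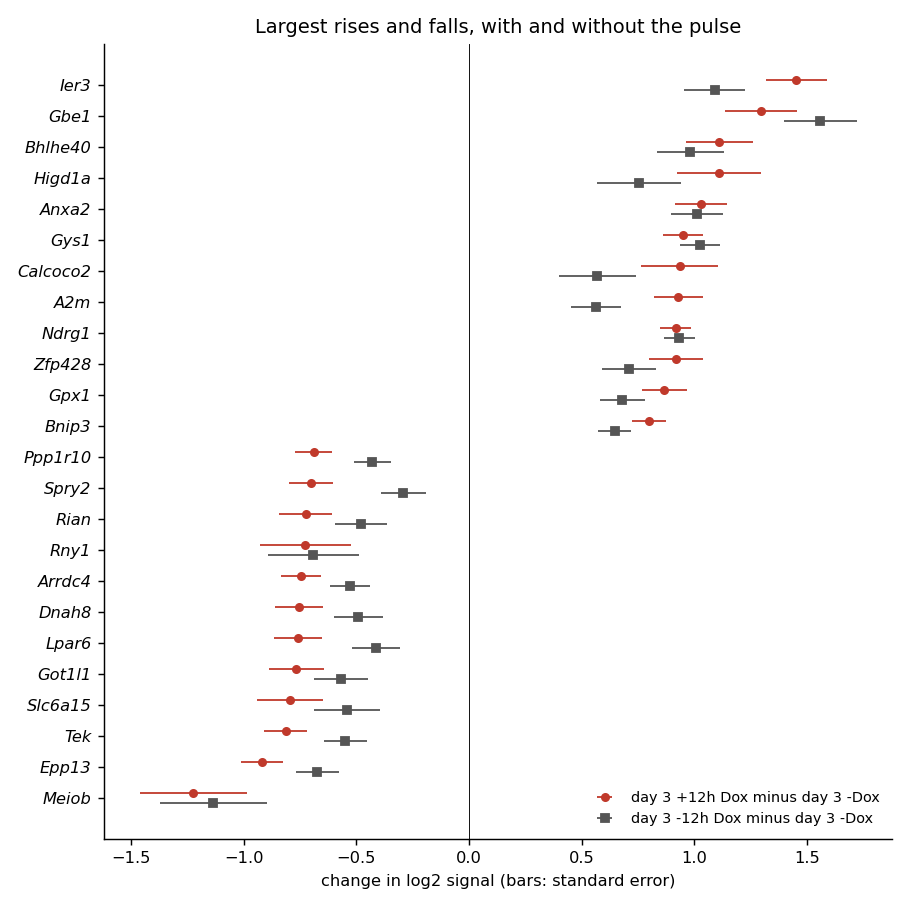
Log2 change from the start point for the 12 largest called rises and 12 largest called falls among genes left by the naming rule, which leaves out miRNA loci, in pulsed cells (red circles) and in the timed control (grey squares), with bars of 1 standard error. Gbe1, Gys1 and Ndrg1 stood higher in the timed control than in pulsed cells, and each of the 12 falls was larger in pulsed cells. The genes were picked by their change in pulsed cells, which favours a larger value there. None of the 12 falls was called between pulsed cells and timed control, and both series are measured from the same 3 start arrays.

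Promoters of the hypoxia genes are shown because ACGTG is 1 form of the core that HIF factors bind in hypoxia response elements. The windows are from RefSeq (GRCm38.p6), 250 bases before to 50 after a gene start, 5′ to 3′ on the gene's strand, with ACGTG or its reverse complement CACGT in capitals. Bnip3 is at chr7:138909457-138909756 on the minus strand, Ldha at chr7:46845554-46845853 on the plus strand and Egln3 at chr12:54203825-54204124 on the minus strand.
Bnip3: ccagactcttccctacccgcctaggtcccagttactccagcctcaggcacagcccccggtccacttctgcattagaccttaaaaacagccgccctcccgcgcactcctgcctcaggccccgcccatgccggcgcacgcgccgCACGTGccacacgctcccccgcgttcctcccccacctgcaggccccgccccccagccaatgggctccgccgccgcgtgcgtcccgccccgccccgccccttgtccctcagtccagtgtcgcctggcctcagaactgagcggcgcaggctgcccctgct
Ldha: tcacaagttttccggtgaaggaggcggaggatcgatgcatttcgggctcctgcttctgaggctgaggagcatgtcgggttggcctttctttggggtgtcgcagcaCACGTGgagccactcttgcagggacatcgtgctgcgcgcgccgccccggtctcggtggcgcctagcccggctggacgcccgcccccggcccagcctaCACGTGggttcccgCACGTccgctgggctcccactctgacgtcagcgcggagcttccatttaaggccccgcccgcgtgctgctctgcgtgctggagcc
Egln3: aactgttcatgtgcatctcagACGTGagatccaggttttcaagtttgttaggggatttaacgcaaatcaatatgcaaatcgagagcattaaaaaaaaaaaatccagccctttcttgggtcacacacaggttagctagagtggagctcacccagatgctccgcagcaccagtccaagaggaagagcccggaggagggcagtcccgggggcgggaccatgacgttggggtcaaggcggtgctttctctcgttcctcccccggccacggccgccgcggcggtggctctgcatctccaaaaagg
These windows were chosen because they hold the letters. The Ldha window shown held 5 matches, that of Bnip3 held 2 that overlap in 1 palindrome, and that of Egln3 held 1, counting both strands and overlaps. Of the 8 windows of called list members, 5 held a match (62.5%), beside 8 of 14 windows of members that were not called (57.14%) and 6447 of 32851 windows of all genes (19.62%). A second window of Ldha (chr7:46846832-46847131), a second one of Vegfa and the window of Pfkp held 0 matches. Among genes that are not on the list, the windows of Gbe1 and Gys1 held 0 and those of Higd1a and Ier3 held 1 each. Called and not called members thus held the letters at close shares. Ndrg1 had no window in the table. A match describes these letters and is not evidence of binding. Only these letters were counted, so a window with 0 matches may hold another form of the core.

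Simple epithelial keratins, the filament proteins of trophectoderm, rose further rather than moving back. Krt8 had 11.71, 11.72 and 11.71 in pulsed cells, 11.89, 11.82 and 11.91 in the timed control, 11.27, 11.14 and 11.11 at the start point, and 10.14, 10.03 and 10.08 at day 0. Its change was 0.54 ± 0.090 (adjusted p = 0.000609), beside 0.70 in the timed control. Krt19 changed by 0.56 and 0.88, and its partner Krt18 by 0.39 and 0.51. All pulsed arrays of Krt8 were above the start point and below the timed control. Krt7 did not pass the test in pulsed cells, at 9.59, 9.53 and 9.69 against 9.55, 9.72 and 9.59 at the start point (difference -0.02, adjusted p = 0.953), while its timed control stood 0.26 above the start point (adjusted p = 0.0281). Centring each array on its median turned the sign of the Krt7 difference, to 0.002.

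Of the 19 measured trophectoderm and simple epithelium genes, 4 were called higher in pulsed cells (the 3 keratins and Ascl2, a trophoblast bHLH factor) and none lower, and the timed control called 6 higher. Over all clusters 1.35% were called higher and 2.05% lower. The extraembryonic endoderm list had 1 call among 27, the matrix protein Sparc (0.37, adjusted p = 0.00502), with Gata6 at a difference of 0.10 (adjusted p = 0.692). The mesoderm list had 1 among 22, the ligand Bmp4 (0.42, adjusted p = 0.00554), which was movement back. The neural list had 1 among 21, the bHLH factor Neurod1 (-0.44, adjusted p = 0.0243), which was onward. In the formative list 2 of 21 were higher (the kinase Pim2, 0.55, and N-cadherin Cdh2, 0.51) and 1 lower (Fgf5). Both rises were as large in the timed control, at 0.61 for Pim2 and 0.53 for Cdh2. Sparc changed there by 0.36 (adjusted p = 0.00878), Neurod1 by -0.48 (adjusted p = 0.0188) and Bmp4 by 0.30 (adjusted p = 0.0745). None of these genes was called between pulsed cells and the timed control. When 1 array was left out, the adjusted p rose to 0.294 for Ascl2, 0.0616 for Sparc, 0.164 for Neurod1 and 0.0689 for Pim2.

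Feeder fibroblast genes were counted because the line was kept on fibroblasts. Of 29 measured, 1 was called higher (the filament gene Vim, 0.44) and 3 lower (the matricellular genes Ccn2, -0.40, and Ccn1, -0.37, and the collagenase Mmp2, -0.38), with a median change of -0.03. In the timed control Vim changed by 0.44 as well (adjusted p = 0.00376). Ccn2, Ccn1 and Mmp2 changed there by -0.20, -0.25 and -0.29 and were not called. A fit of the compared groups alone ended the calls of Ccn2 (adjusted p = 0.0553) and Ccn1 (0.0908). The mean signal over the list was 7.80 to 7.88 in the pulsed arrays and 7.87 to 7.91 in the start arrays. Without 1 array the adjusted p rose to 0.198 for Ccn1 and 0.136 for Mmp2. The part of fibroblast RNA in the other results was not tested.

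Signalling lists are given beside the 3.4% of all clusters that were called. Among 20 genes of ERK feedback and targets, Ier3 was higher and 3 were lower: Spry2 and Spry1, inhibitors of receptor tyrosine kinase signalling, and the ERK phosphatase Dusp4. Spry2 had 9.81, 9.87 and 9.77 in pulsed cells, 10.11, 10.37 and 10.20 in the timed control, 10.56, 10.52 and 10.47 at the start point, and 10.34, 10.35 and 10.19 at day 0. Its pulsed arrays were below those of every other group, day 0 included, and its change was -0.70 ± 0.099 (adjusted p = 0.000102), beside -0.29 in the timed control (adjusted p = 0.158). The direct contrast of Spry2 with the timed control was -0.41 and did not pass (adjusted p = 0.114). Dusp4 changed by -0.42 (adjusted p = 0.0264) and Spry1 by -0.36 (adjusted p = 0.0277), both movement back. Either call was lost on centring the arrays and without any of 5 of them (adjusted p up to 0.151 and 0.133).

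Of 17 LIF and STAT3 genes 2 were lower, the kinases Sgk1 (-0.35, adjusted p = 0.00432) and Pim3 (-0.25, adjusted p = 0.013). Sgk1 moved onward, and its change in the timed control was -0.36 (adjusted p = 0.00552). Of 18 Nodal and BMP genes Bmp4 was higher and the inhibitor Smad7 lower (-0.31, adjusted p = 0.0366). Smad7 changed by -0.31 in the timed control too (adjusted p = 0.0574). Of 15 Wnt genes the receptor Fzd7 was lower (-0.43, adjusted p = 0.00391), beside -0.14 in the timed control, and this was movement back. The direct contrast of Fzd7 with the timed control was -0.29 (adjusted p = 0.165). Of 16 p53 targets, Trp53inp1 was lower (-0.32, adjusted p = 0.00503). The Smad7 call was lost without any of the 6 arrays (adjusted p up to 0.196), and that of Pim3 without 2 of them (up to 0.0697).

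Of 21 genes of the ATF4, serine and one-carbon list, 6 were called lower (Atf4, Chac1, Asns, Psat1, Phgdh and Aldh18a1) and 1 higher (Ddit4, an inhibitor of mTORC1 that hypoxia also induces), and the other 14 did not pass the test. Over all clusters 2.05% were called lower and 1.35% higher. Atf4, the transcription factor of the integrated stress response, had 9.54, 9.58 and 9.68 in pulsed cells, 9.55, 9.67 and 9.62 in the timed control, 9.84, 10.07 and 10.06 at the start point, and 10.21, 10.29 and 10.22 at day 0. It changed by -0.39 ± 0.072 (adjusted p = 0.00183), beside -0.38 in the timed control. Chac1, a glutathione-degrading enzyme, changed by -0.52 and -0.59, and Phgdh, the first enzyme of serine synthesis, by -0.39 and -0.21. Ddit4 changed by 0.55 in pulsed cells and 0.63 in the timed control. Without 1 array the adjusted p rose to 0.129 for Chac1, 0.085 for Phgdh and 0.0757 for Ddit4.

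Of 19 S phase genes, Rrm2 (0.34) and Tyms (0.38), which make nucleotides for DNA synthesis, were higher. Of 19 mitosis genes Birc5 (survivin, 0.36) was higher, beside 1.35% of all clusters. All 3 calls were lost without 1 or more of the arrays, with an adjusted p up to 0.159, 0.11 and 0.259. Myc differed by 0.19 (adjusted p = 0.537) and Ccnd1 by 0.18 (adjusted p = 0.245). No gene was called among 20 of ribosome biogenesis, 13 of cholesterol synthesis or 9 housekeeping genes. Tet2 was the only call among 21 genes of Polycomb and DNA methylation, and Khdc3 and Meiob were the calls among 14 maternal and germline genes.

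**Figure D4:**
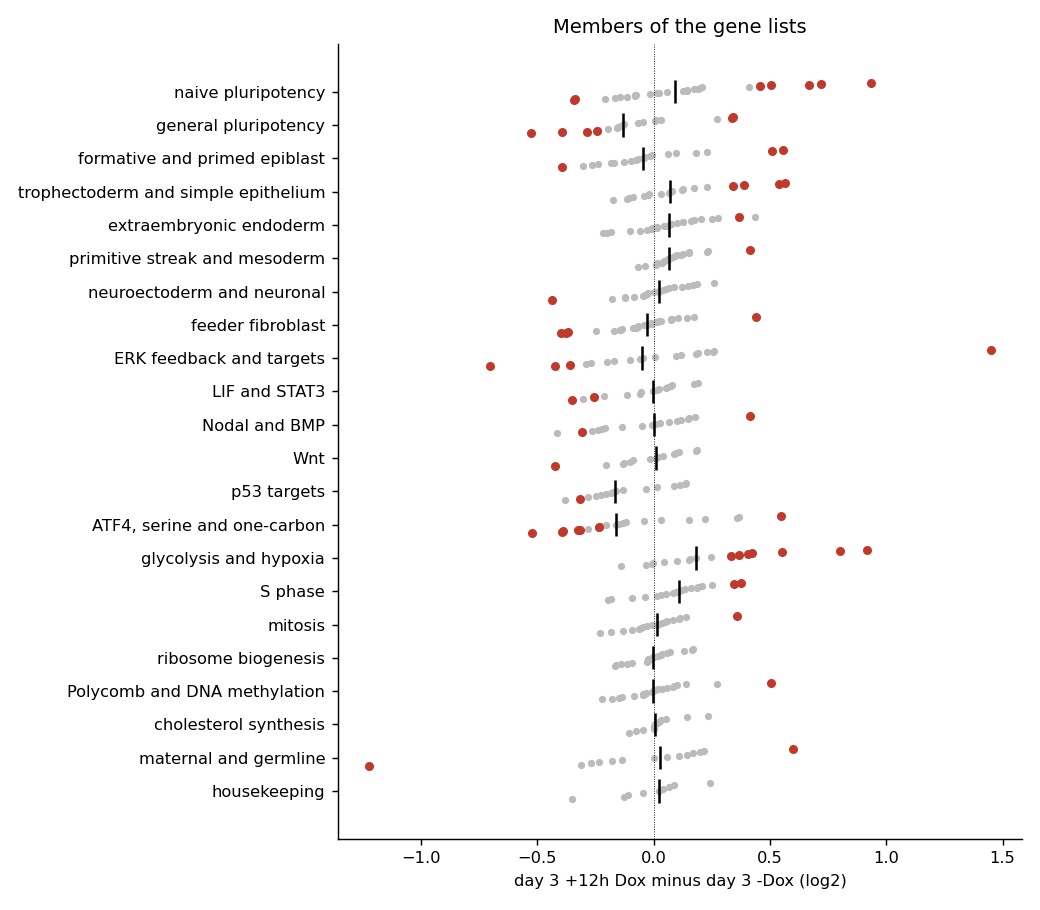
Log2 change of pulsed cells from the start point for the measured members of 22 gene lists, with called members in red, others in grey and the list median as a black bar. The glycolysis and hypoxia list had 7 called members, all higher, and the ATF4 list 6 lower and 1 higher.

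Other falls were onward or were not called in the timed control against day 0. Slc6a15, a neuronal transporter of branched amino acids, had 7.52, 7.52 and 7.39 in pulsed cells, 7.45, 8.02 and 7.70 in the timed control, 8.31, 8.26 and 8.24 at the start point, and 8.60, 8.57 and 8.52 at day 0. Its change was -0.79 ± 0.145 (adjusted p = 0.0017), onward. Ppp1r10, a nuclear phosphatase subunit, changed by -0.69 in pulsed cells and -0.43 in the timed control, the ubiquitin ligase Trim36 by -0.59 and -0.65, Dusp27 by -0.55 and -0.33, and the proton pump subunit Atp12a by -0.51 and -0.69. Rny1 changed by -0.73 (adjusted p = 0.0427), which is uncertain because Y RNAs have near-identical copies, and the call was lost without any of the 6 arrays. Atp12a lost its call without start replicate 2 (adjusted p = 0.0604).

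Epp13 changed by -0.92 ± 0.094 (adjusted p = 1.6e-06), Tek, the angiopoietin receptor, by -0.81 ± 0.095 (adjusted p = 8.12e-06), and Arrdc4, an arrestin that responds to glucose, by -0.75 ± 0.089 (adjusted p = 9.7e-06). Without Dox they also fell from the start point, by -0.67 (adjusted p = 0.000114), -0.55 (adjusted p = 0.00152) and -0.53 (adjusted p = 0.00118). None of these 3 genes was called in the timed control against day 0, but their start points stood above day 0, by 0.65 for Epp13 (adjusted p = 4.12e-06), 0.67 for Tek (adjusted p = 3.16e-06) and 0.72 for Arrdc4 (adjusted p = 4.92e-07). Tek had 7.79, 7.93 and 7.61 in pulsed cells, 8.0, 8.15 and 7.98 in the timed control, 8.57, 8.70 and 8.50 at the start point, and 7.94, 7.99 and 7.83 at day 0. The start arrays of Tek were above all others, which did not differ much among themselves.

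The imprinted Dlk1-Dio3 region of chromosome 12 carries the maternally expressed noncoding RNAs Meg3 and Rian with a long run of miRNA genes, and 9 of its 47 clusters were called lower in pulsed cells. It was picked out after the values were seen, since Rian was among the largest falls, and its neighbours share transcripts, so they are not independent. Of the 47, 40 are miRNA genes, none was called higher, 42 were below zero, and the median change was -0.27. Over all clusters 2.05% were called lower and the median change was -0.0034. In the timed control 1 of the 47 was called lower and 37 were below zero, with a median of -0.13. The direct contrast of pulsed cells with the timed control called none of them. A cluster named for a miRNA gene reports RNA of that locus and not necessarily the mature miRNA, and many of them had low signal.

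Rian had 8.14, 8.03 and 7.97 in pulsed cells, 8.18, 8.39 and 8.30 in the timed control, 8.86, 8.74 and 8.70 at the start point, and 7.20, 7.44 and 7.12 at day 0. It changed by -0.72 ± 0.117 (adjusted p = 0.00047), beside -0.48 in the timed control (adjusted p = 0.0304). Meg3 was at 10.52, 10.50 and 10.46 in pulsed cells, 10.44, 10.51 and 10.48 in the timed control, and 10.73, 10.77 and 10.77 at the start point. All its pulsed arrays were below the start point, but the difference of -0.27 did not pass (adjusted p = 0.0831). The locus of Mir377 had 5.94, 5.89 and 5.71 in pulsed cells, 6.68, 6.95 and 6.34 in the timed control, 7.23, 7.32 and 6.60 at the start point, and 5.12, 5.49 and 4.61 at day 0.

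Mir377 changed by -1.21 ± 0.222 (adjusted p = 0.00189), beside -0.39 in the timed control (adjusted p = 0.522), and the direct contrast was -0.81 (adjusted p = 0.149). Its pulsed arrays lay below those of the timed control and the start point and above those of day 0. Mir382 changed by -0.78 ± 0.147 (adjusted p = 0.0025) and Mir300 by -0.70 ± 0.179 (adjusted p = 0.026), beside -0.22 and -0.16 in the timed control. The other called miRNA loci of the region were Mir380, Mir329, Mir679, Mir154 and Mir496a. Calls of single miRNA loci, here and on the X chromosome, were not checked by leaving out arrays.

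**Figure D5:**
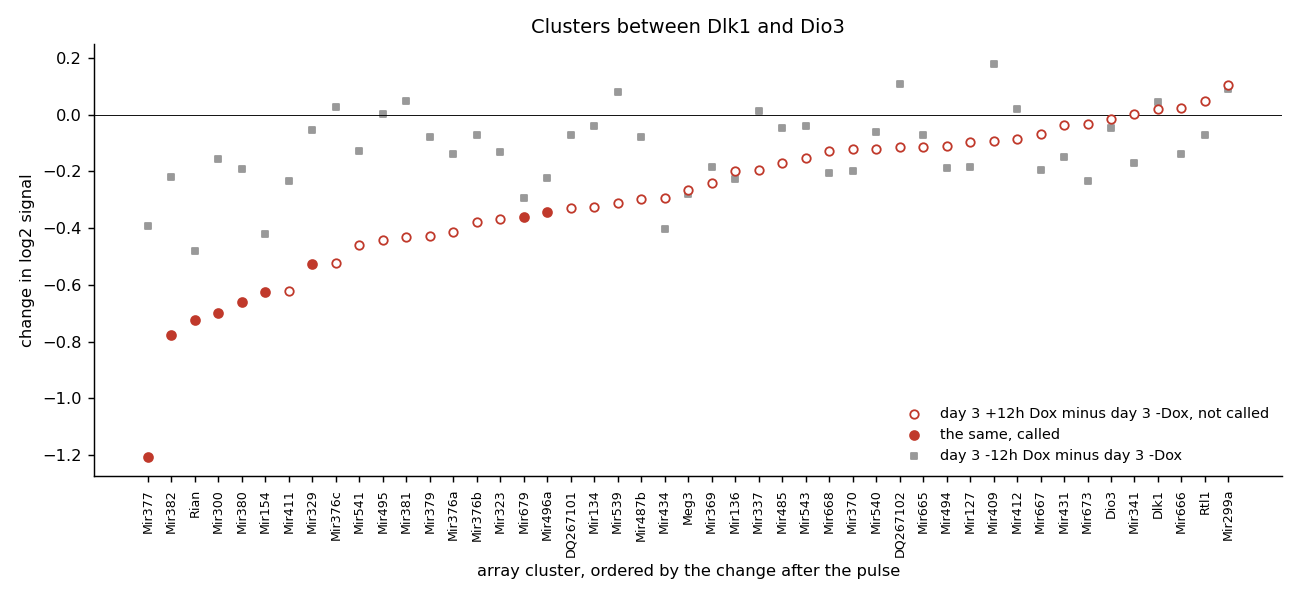
Log2 change from the start point for the 47 array clusters between Dlk1 and Dio3, ordered by their change in pulsed cells (red circles, filled where called) and with the timed control as grey squares. Of the 47, 42 were below zero in pulsed cells and 37 in the timed control.

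A miRNA cluster on the X chromosome, Mir106a to Mir363, also chosen after its values were seen, had 1 call among 5 clusters. Mir106a had 6.40, 6.65 and 6.47 in pulsed cells, 7.22, 7.61 and 7.16 in the timed control, 7.42, 7.65 and 7.07 at the start point, and 5.38, 5.65 and 4.97 at day 0. It changed by -0.87 ± 0.162 (adjusted p = 0.00204), beside -0.05 in the timed control (adjusted p = 0.954), and the direct contrast was -0.82 (adjusted p = 0.0551). Mir363 differed by -0.75 (adjusted p = 0.0858). The median over the 5 clusters was -0.39 in pulsed cells and 0.03 in the timed control.

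The mature products of the 3 called loci of the Dlk1-Dio3 region with the largest change, and of Mir106a, are shown so that their seeds can be compared, since bases 2 to 8 of a miRNA select its target sites. They are from RefSeq (GRCm38.p6), 5′ to 3′, with the seed in capitals. The 5p arm of miR-377 is at chr12:109740515-109740536, of miR-382 at chr12:109733781-109733802, of miR-300 at chr12:109724318-109724339, all on the plus strand, and of miR-106a at chrX:52742541-52742563 on the minus strand.
miR-377-5p: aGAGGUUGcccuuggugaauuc
miR-377-3p: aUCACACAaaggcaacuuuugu
miR-382-5p: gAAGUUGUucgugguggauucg
miR-382-3p: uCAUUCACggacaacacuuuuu
miR-300-5p: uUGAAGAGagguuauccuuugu
miR-300-3p: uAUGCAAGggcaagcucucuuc
miR-106a-5p: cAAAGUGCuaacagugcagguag
miR-106a-3p: aCUGCAGUgccagcacuucuuac
Over the 9 called miRNA loci the table held 18 mature sequences, and all 18 seeds were distinct, so no called locus shared a seed with another. The seed AAAGUGC of miR-106a-5p is that of the family that includes miR-17 and miR-20, which is abundant in embryonic stem cells.

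The same contrast, pulsed cells against their start point, called 157 clusters (0.671%) at day 1 and 2702 (11.6%) at day 5, from arrays not shared with day 3. Testing the difference itself called 145 clusters (0.62%) between day 3 and day 1 and 211 (0.902%) between day 3 and day 5. Ier3 and Bhlhe40 were called higher at day 3 and were not called at days 1 and 5. Ier3 changed by 0.34 at day 1 (adjusted p = 0.409), 1.45 at day 3 and 0.23 at day 5 (adjusted p = 0.313), and the differences of day 3 from day 1 and from day 5 both passed (adjusted p = 0.00468 and 0.00256). Bhlhe40 changed by 0.14 at day 1, 1.11 at day 3 and -0.01 at day 5 (differences with adjusted p = 0.0284 and 0.00718). The day 3 timed control also stood above the shared start arrays, by 1.09 for Ier3 and 0.98 for Bhlhe40. Differences of single genes between days were not checked by leaving out arrays. With 1 array left out, the count between day 3 and day 1 was 39 to 209.

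Gbe1 changed by 0.29 at day 1, 1.29 at day 3 and 0.80 at day 5, and the difference of day 3 from day 1 passed (adjusted p = 0.036). Tspan2, a tetraspanin, changed by 0.51 at day 1, -0.66 at day 3 and -0.80 at day 5. Its direction thus differed between day 3 and day 1, by -1.17 ± 0.157 (adjusted p = 0.000827). Mme (neprilysin), a membrane peptidase, changed by -0.61 at day 3, against a value of 0.39 at day 1 that did not pass (adjusted p = 0.0526). Against day 5 the trophoblast gene Plac1 differed most: 0.17 at day 3 (adjusted p = 0.719) and 1.94 at day 5 (adjusted p = 1.58e-08). Phlda2, an imprinted regulator of placental growth, was at 0.57 (adjusted p = 0.0701) and 2.07, and Myc at 0.19 and 1.41.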

How the data were processed

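Mouse Gene 1.0 ST arrays from Affymetrix measured total RNA of 30 samples. The authors deposited 1 log2 signal for each transcript cluster (a probe set for a transcription unit). It was computed by RMA with Affymetrix's Expression Console program, according to the notes of the submitters. Software versions, annotation release and build are not given in the sources used here. RMA equalizes the arrays' distributions, so a shift of all transcripts together cannot be seen. Of 28815 clusters, 21780 had 1 symbol, 1605 several and 5430 none in the platform table. The 23385 with a symbol were tested, 21689 of them matched to RefSeq by gene ID, and 238 repeat the values of a tested cluster. None of the 30 replicate pairs were identical (0 of 30).

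All arrays were fitted in limma 3.58.1 (R 4.3.3), with 1 mean per group, no covariate and a single estimate of spread, and Benjamini-Hochberg adjustment ran over all tested clusters of a contrast. The script was tested on simulated data. The cluster with the highest mean stands for a gene that has several, except that genes named by a call against the timed control are given by the called cluster. Arrays have no read depth; 3 arrays per group limit the precision.

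The named genes are the 12 largest called rises and 12 largest falls without overlap between the arrays, the 8 largest each way that moved back or onward, a core set, up to 4 called members of each list, the 5 largest differences between days, and genes called against the timed control alone. The ranks leave out clusters with several symbols and miRNA, small nucleolar RNA, predicted (Gm, LOC, Rik), olfactory receptor and Usp17l genes. The members and lists were chosen with earlier results of these data known. Replicate numbers do not pair the samples: same-numbered pulsed and start arrays had deviations correlated at -0.26, 0.03 and -0.17. Alternatives were other variance settings, array weights, normalizations and filters, a replicate block and left-out arrays.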

Additional observations from a re-analysis of the deposited data

Results flagged for a closer look

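The change of pulsed cells from the start point differed between days for these genes, by limma's test of the difference itself over 3 arrays a group. Between day 3 and day 1 the difference of log2 changes was -1.17 for Tspan2 (adjusted p = 0.000827), 1.11 for Ier3 (adjusted p = 0.00468), 1.01 for Gbe1 (adjusted p = 0.036), -0.998 for Mme (adjusted p = 0.000827) and 0.97 for Bhlhe40 (adjusted p = 0.0284). Between day 3 and day 5 it was -1.76 for Plac1 (adjusted p = 0.000341), -1.51 for Phlda2 (adjusted p = 0.00261), 1.22 for Ier3 (adjusted p = 0.00256), -1.21 for Myc (adjusted p = 0.002) and 1.13 for H3c15 (adjusted p = 0.0435). H3c15 is a histone gene with near-identical copies, and its value is uncertain. These are the 5 largest called differences for each pair of days, and they were not checked by leaving out arrays.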

How the results depend on the processing

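The 82 named genes that were called in pulsed cells against the start point kept their direction under every alternative and left-out array that was run. Counts below stand for pulsed against start (main 796), back (413), onward (153), timed control against start (396), pulsed against timed control (9), day 3 minus day 1 (145) and day 3 minus day 5 (211), and only those that moved by over 1.5 times are given. Array weights gave 4483, 2467, 567, 1228, 1865, 2521 and 2194. Quantile normalization gave 1585, 818, 299, 634, 26, 507 and 710, and the interquartile range as a covariate 2080, 1098, 358, 840, 67, 907 and 774. A 2-fold minimum gave 7, 2, 4, 5, 0, 5 and 8. Variance with trend and robust settings gave 642 back, 43 against the timed control, and 318 and 406 between days. Leaving out the lowest 40% of signal gave 1245, 671 back, 60 against the timed control, and 296 and 365 between days. Centring each array gave 2 against the timed control, and 87 and 123 between days. The compared groups alone gave 55 for timed control against start and 1 against the timed control. Of the 82 named calls they ended 11 (Chac1, Fgf5, Pim2, Ascl2, Sparc, Ccn2, Ccn1, Pim3, Rrm2, Birc5 and Lpar4), and centring ended 7 (Rny1, Fgf5, Ascl2, Ccn1, Dusp4, Spry1 and Smad7). After the data were seen, the 4 arrays of widest spread were left out together, which gave 1380, 698 back, 2 against the timed control, and 418 and 531 between days. The cause of these shifts was not tested. Leaving out 1 array at a time gave 269 to 776, 122 to 452 back, 67 to 145 onward, 151 to 280, 1 to 4, 39 to 209 and 80 to 274. The replicate block gave 740, 395, 137, 330, 10, 127 and 158, and of the named calls Ascl2 alone was lost. The difference turned sign for 2 uncalled genes: Krt7 was 0.0023 on centring, 0.0019 on quantile normalization, and -0.063 to 0.033 without single arrays. H3c15 was 0.0016 on centring, 0.0044 with the covariate, and -0.143 to 0.062 without single arrays. With 3 arrays in a group, the unequal spread of arrays limits these counts.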
